A study of Mus musculus with 6 samples.

Results

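The cytosolic ribosomal proteins are the proteins that, with the ribosomal RNAs, build the large and the small subunit of the ribosome in the cytoplasm. Their genes were taken by name: every gene whose symbol in the deposited annotation starts with Rpl, Rps or Rplp followed by a digit, leaving out the S6 kinases (10 names starting with Rps6k) and 7 names marked as pseudogenes. This gave 85 genes of 22061, measured by 407 of 28361 probe sets. Of the 85 genes, 52 are named after the large and 33 after the small subunit. They comprise 76 core proteins, 8 paralogs with the name of a core protein plus a suffix, and Rps19bp1, a protein that binds Rps19. Where a gene had several probe sets, the brightest one over all 6 arrays stood for it.

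The RNA came from MCT cells, a line of proximal tubular epithelium set up from the kidney cortex of SJL mice, which was starved of serum overnight in both groups. The control group (n = 3 arrays) received vehicle, and the TWEAK group (n = 3 arrays) received 100 ng/mL of TWEAK, a cytokine of the TNF superfamily that signals through the receptor Fn14 to NF-kB, for 6 h. The series describes the arrays of a group as independent experiments, all in the same cell line. The question put to the members was whether their transcripts changed with TWEAK, and whether those of the large and the small subunit differed in this.

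Ribosomal protein genes are transcribed at high rates in growing cells, and the subunits need their proteins in matched amounts. Most of their mRNAs begin with a run of pyrimidines, the 5′ terminal oligopyrimidine (TOP) motif, through which mTORC1 and the RNA-binding protein Larp1 set how much of the mRNA is translated. Their output is therefore known to be set largely at translation, which an RNA array does not measure.

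The start sites of 9 members are shown. The last 3 belong to members whose unadjusted p in limma was under 0.05. The others are examples from the 39 members with a pyrimidine run near the start. The windows are therefore no comparison of members by their difference. Rpl11, Rplp0 and Rps3, which differed by -0.02, 0.01 and 0.02, had no such run either. Rpl7 and Rpl30, also at an unadjusted p under 0.05 in limma, had no RefSeq promoter at hand. Each window holds 10 bases before and 20 bases from the RefSeq start on (GRCm38.p6), 5′ to 3′ on the gene's strand. Capitals mark the longest run of a C followed by at least 4 further pyrimidines that begins within 10 bases of the start.
Rpl13a (chr7:45128726-45128755, minus strand): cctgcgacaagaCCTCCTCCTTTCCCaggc
Rpl15 (chr14:18270967-18270996, minus strand): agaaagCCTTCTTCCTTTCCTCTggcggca
Rpl27a (chr7:109519185-109519214, plus strand): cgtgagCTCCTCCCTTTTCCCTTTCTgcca
Rps6 (chr4:86857348-86857377, minus strand): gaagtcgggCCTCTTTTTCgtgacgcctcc
Rps10 (chr17:27635225-27635254, minus strand): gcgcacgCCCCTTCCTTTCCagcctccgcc
Rps27 (chr3:90213629-90213658, minus strand): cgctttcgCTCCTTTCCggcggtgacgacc
Rpl5 (chr5:107900518-107900547, plus strand): cgtcgcttgcgtgctggtggtgctacatac
Rpl23 (chr11:97782420-97782449, minus strand): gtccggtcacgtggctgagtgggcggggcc
Rps3a1 (chr3:86142649-86142678, minus strand): gccggaagggcgaaagagcaagggtcacgt

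RefSeq promoters were at hand for 64 members, 40 of the large and 24 of the small subunit. Such a pyrimidine run was found in 39 of the 64 (60.9%; 24 large, 15 small) and in 34.4% of 27025 genes with a promoter. In the windows of 250 bases before to 50 bases after the start, searched on both strands, the ETS core CCGGAAG was present in 39.1% of the members and in 9.93% of all genes, and the YY1 core AAGATGG in 15.6% and 7.28%. The NF-kB consensus was present in 2 members (3.12%), Rps19 and Rps23, named after the search, and in 5.14% of all genes. TATAAA, searched before the start on the gene's strand, was present in 3.12% of the members and 8.94% of all genes. These are matches of letters, not sites shown to be used. A gene counted as having a run if any of its RefSeq starts had it. Some members, such as Rps24, had a start with a run and another without. The median difference between TWEAK and control was 0.03 on the log2 scale for the 39 members with a pyrimidine run (range -0.31 to 0.17) and 0.00 for the 25 without (range -0.46 to 0.28).

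The median log2 value over genes lay between 6.26 and 6.34 per array, and precision is limited by having 3 arrays per group. Markers of the labelled cell type were uneven: the endocytic receptor Lrp2 had a mean of 8.45 and the glucose transporter Slc5a2 of 8.15, while Slc34a1, Cubn and Slc22a6 had means of 6.25, 5.97 and 5.18. Limma called 0 of the 12 proximal tubule markers, with 3 before adjustment. The 6 leukocyte markers had means of 4.09 to 6.01 and the 5 endothelial markers of 4.76 to 5.68, with 0 of either called between the groups and 0 and 1 before adjustment in limma. The 6 fibroblast and pericyte markers had means of 3.52 to 7.46. For the 6 distal nephron and podocyte markers they were 4.72 to 6.96. Limma called 0 of either, with 0 before adjustment. The 7 epithelial markers had means of 5.02 to 10.94, and 1 was called higher, against 1.28% of all genes.

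After 6 h of TWEAK, 0 of the 85 members passed an adjusted p of 0.05 (limma, Benjamini-Hochberg adjustment over all genes). Of all 22061 genes, 3.00% were called, 1.28% higher and 1.71% lower. With arrays weighted by their quality in limma, 4 members passed: Rpl30 was higher (adjusted p = 0.0162), and Rpl23 (0.0351), Rpl5 (0.0406) and Rps3a1 (0.0487) were lower. Those weights called 5.05% of all genes higher and 9.56% lower among the 22061. At an unadjusted p under 0.05 there were 5 members, 1 higher and 4 lower (5.88%), against 21.3% of all genes, 8.15% higher and 13.1% lower. The median difference (TWEAK minus control) was 0.01 on the log2 scale for the members, with quartiles of -0.06 and 0.06, and 0.03 for all genes, with quartiles of -0.10 and 0.12. Differences ran from -0.59 for Rpl7 to 0.41 for Rpl30, and 58 of the 85 lay within 0.1 of 0. The arrays of the groups did not overlap for 14 members (6 higher, 8 lower; 16.5%), against 26.4% of all genes (12.9% higher, 13.5% lower).

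The intervals say how large a change these arrays could still hide, with each gene's variance drawn by limma toward a value shared by all genes. The 95% interval of the difference lay within 1.5-fold in either direction for 78 of the 85 members, and within 1.2-fold for 45. For all genes, 81.4% had an interval within 1.5-fold. The 7 members with wider or more distant intervals included Rpl5, Rpl7, Rpl10l, Rpl30, Rps3a1 and Rps24. For Rpl7 alone the interval passed 2-fold.

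**Figure D1:**
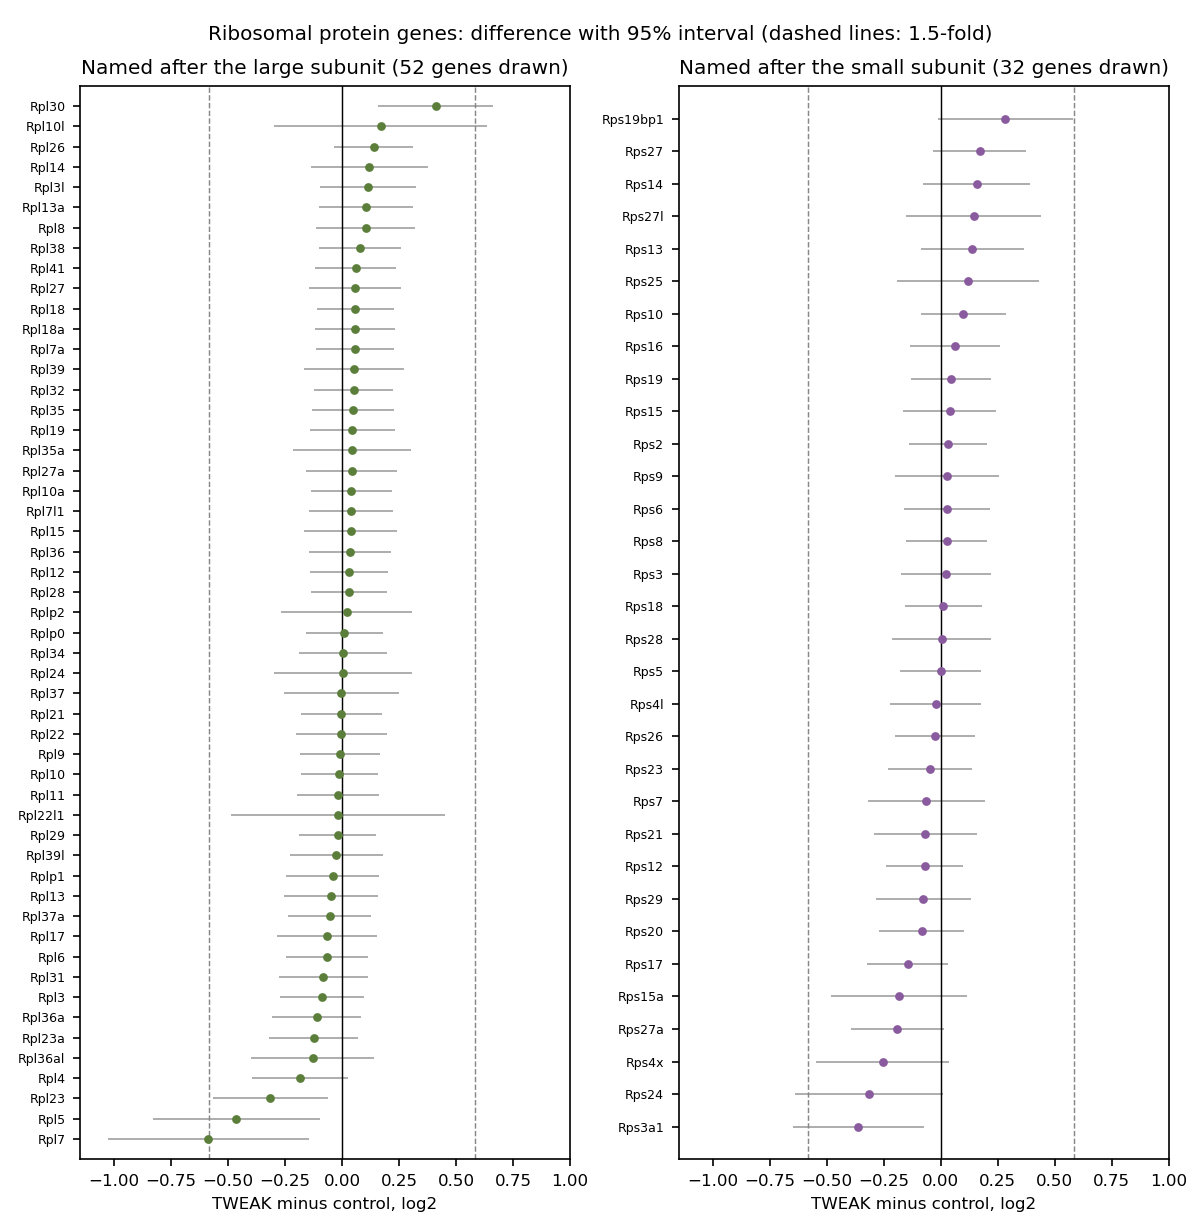
Difference between TWEAK and control (log2, points) with its 95% interval in limma (bars) for genes named after the large subunit (left) and the small subunit (right), sorted by size; dashed lines mark a 1.5-fold change. Most points lie near 0, Rpl7 lies lowest at -0.59 and Rpl30 highest at 0.41.

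Genes of high signal give a closer comparison, since the members were bright: 52 of the 85 had a mean log2 value of 12 or more, on arrays whose brightest gene reached 13.80 to 13.91. Of those 52 members, 0 had an unadjusted p under 0.05 in limma. Of 307 other genes with a mean of 12 or more, 21 did (6.84%), and 2 (0.651%) passed the adjusted threshold. The median SE was 0.08 in both sets, and the median size of the difference regardless of sign was 0.04 for the 52 members and 0.06 for the 307 other genes. The 33 members with a mean under 12 held all 5 with an unadjusted p under 0.05 in limma (15.2%, against 21.3% of all genes). Their median size of difference was 0.13, against 0.12 for all genes. All genes are a dimmer set, with a median log2 mean of 6.32 against 11.14 for these 33. In a limma fit of only the 11030 genes brighter than the median gene, 32.1% had an unadjusted p under 0.05. Within the members, 45 of the 52 bright ones and 13 of the 33 others lay within 0.1 of 0. Whether signals near the top of the scale hide differences was not tested. RMA also makes the distributions of the arrays alike, which can remove a change common to most of the mRNA. In a bulk sample, fewer cells of a type and less RNA per cell cannot be told apart.

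The large and the small subunit genes had similar median differences. The median difference was 0.01 for the 52 large subunit genes (range -0.59 to 0.41, 4 at an unadjusted p under 0.05) and 0.01 for the 33 small subunit genes (lowest -0.36, 1 at an unadjusted p under 0.05). The sign of these medians was not stable: with cyclic loess they were -0.04 and -0.05, and without TWEAK 3 they were -0.01 and -0.02. Each gene was then set against its own mean over the 6 arrays. The median deviation of the large subunit genes was -0.03, -0.01 and 0.00 in control 1, 2 and 3 and -0.06, 0.04 and 0.05 in TWEAK 1, 2 and 3. That of the small subunit genes was -0.02, 0.02 and 0.01 in the control arrays and -0.10, 0.03 and 0.05 in the TWEAK arrays. Both subunits were lowest in TWEAK 1 and highest in TWEAK 3, and the TWEAK arrays lay on both sides of the control arrays. Large minus small was -0.011 ± 0.013 in control and 0.014 ± 0.019 in TWEAK arrays (mean ± SD, n = 3 each), with groups that overlapped by a hair, control 1 at -0.0020 and TWEAK 3 at -0.0021. Over the 76 core members alone it was -0.012, -0.023 and -0.013 in control 1, 2 and 3 and 0.030, 0.012 and 0.001 in TWEAK 1, 2 and 3. There the groups did not overlap, with means of -0.016 ± 0.006 and 0.014 ± 0.015 (SD, n = 3 each), a gap of hundredths of a log2 unit. No test was run on these medians, since the members share arrays and are not replicates.

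**Figure D2:**
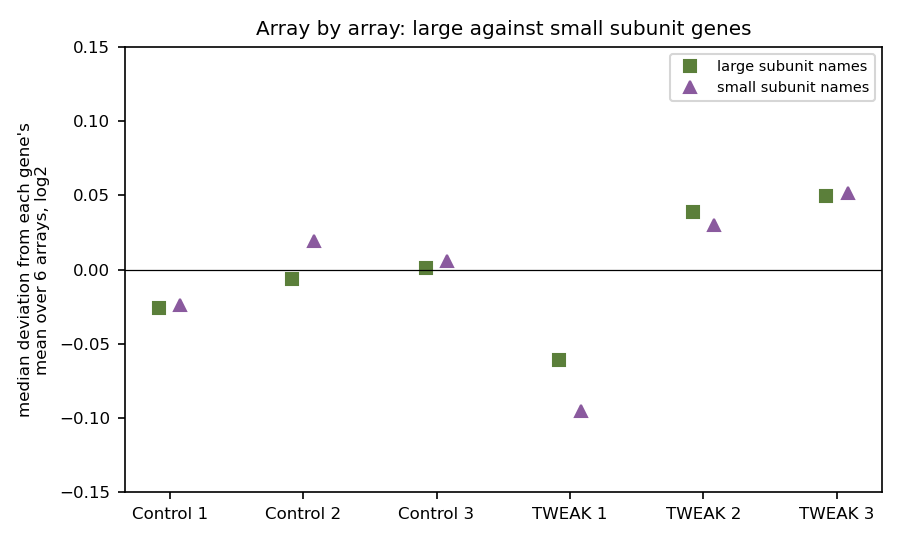
Median deviation of large subunit genes (squares, 52 genes) and small subunit genes (triangles, 33 genes) from each gene's own mean over the 6 arrays, in log2 units, by array. Both subunits are lowest in TWEAK 1, at -0.06 and -0.10, and highest in TWEAK 3, at 0.05 each.

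TWEAK 1 stood apart from TWEAK 2 and 3 for these genes. It held the lowest of the TWEAK values for 60 of the 85 members (70.6%), against 25.8% of all genes, and the highest for 3 (3.53%), against 38.5%. Among the control arrays, control 1 held the lowest value for 49 members (57.6%, against 26.5% of all genes). Without TWEAK 1 the median difference was 0.04 for either subunit and 6 members were higher and 3 lower by limma's unadjusted p (under 0.05), still with 0 past the adjusted threshold. In that fit 6.79% of all genes were higher and 11.2% lower before adjustment. The part of RNA quality or of cell state in this was not tested.

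The stalk proteins, which recruit elongation factors to the large subunit, lay near 0. Rplp0, a protein often used as a reference transcript, read 13.38, 13.37 and 13.37 in control 1, 2 and 3 and 13.39, 13.36 and 13.40 in TWEAK 1, 2 and 3 (log2), a difference of 0.01 (SE 0.07, 95% interval -0.16 to 0.18). Its arrays differed by hundredths, and the groups overlapped. With cyclic loess its difference was -0.07. Rplp1 read 13.52, 13.45 and 13.32 in control and 13.35, 13.35 and 13.47 in TWEAK arrays, a difference of -0.04 (SE 0.09). Rplp2 was measured by a single dim probe set, at 6.44, 6.10 and 6.05 in control and 6.06, 6.29 and 6.30 in TWEAK arrays, a difference of 0.02 (SE 0.13). The groups overlapped for both Rplp1 and Rplp2.

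Rpl5 and Rpl11 travel with the 5S ribosomal RNA and, when free of the ribosome, bind Mdm2 and so link ribosome assembly to p53. Rpl5 read 11.92, 12.14 and 12.22 in control 1, 2 and 3 and 11.79, 11.83 and 11.27 in TWEAK 1, 2 and 3. All TWEAK arrays lay below all control arrays, TWEAK 3 by the widest margin. The difference was -0.46 (SE 0.16, 95% interval -0.83 to -0.10), with an unadjusted p of 0.0192 and a Benjamini-Hochberg adjusted p of 0.139 in limma. Without TWEAK 3 the difference was -0.28. All 5 probe sets of Rpl5 lay between -0.47 and -0.35. Its partner Rpl11 read 12.42, 12.37 and 12.30 in control and 12.38, 12.30 and 12.35 in TWEAK arrays, with overlapping groups and a difference of -0.02 (SE 0.08). The difference between Rpl5 and Rpl11 was not tested.

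Rpl7, an RNA-binding protein of the large subunit, had the lowest difference of all members. It read 10.91, 11.14 and 11.64 in control 1, 2 and 3 and 10.70, 10.84 and 10.40 in TWEAK 1, 2 and 3. The groups did not overlap, with control 1 just above TWEAK 2, and the SD of the control arrays was 0.37, the largest control SD of the 85 members. The difference was -0.59 (SE 0.19, 95% interval -1.03 to -0.15), with an unadjusted p of 0.0151 and an adjusted p of 0.123 in limma. All 4 of its probe sets lay between -0.59 and -0.54. Without control 1 the difference was -0.75 at an adjusted p of 0.0470, the single call of a member in any fit that left out an array. That fit called 6.40% of all genes lower and 2.10% higher. Without control 3, the highest array, the difference of Rpl7 was -0.38.

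Rpl23, on the face of the large subunit that meets the small one, read 11.93, 12.12 and 12.09 in control and 11.78, 11.88 and 11.54 in TWEAK arrays. The groups did not overlap, and the difference was -0.31 (SE 0.11), with an unadjusted p of 0.0210 and an adjusted p of 0.146 in limma. Its second, dimmer probe set (mean 7.77) differed by -0.07, and the mean of both by -0.19.

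Rpl30, at the interface between the subunits, was the sole member above control at an unadjusted p under 0.05. It read 8.63, 8.75 and 8.95 in control 1, 2 and 3 and 9.12, 9.11 and 9.33 in TWEAK 1, 2 and 3. All TWEAK arrays lay above all control arrays. The difference was 0.41 (SE 0.11, 95% interval 0.16 to 0.66), with an unadjusted p of 0.00558 and an adjusted p of 0.0776 in limma, the smallest of the 85. Rpl30 had a single probe set, and the one named for its pseudogene Rpl30-ps6 differed by -0.12.

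**Figure D3:**
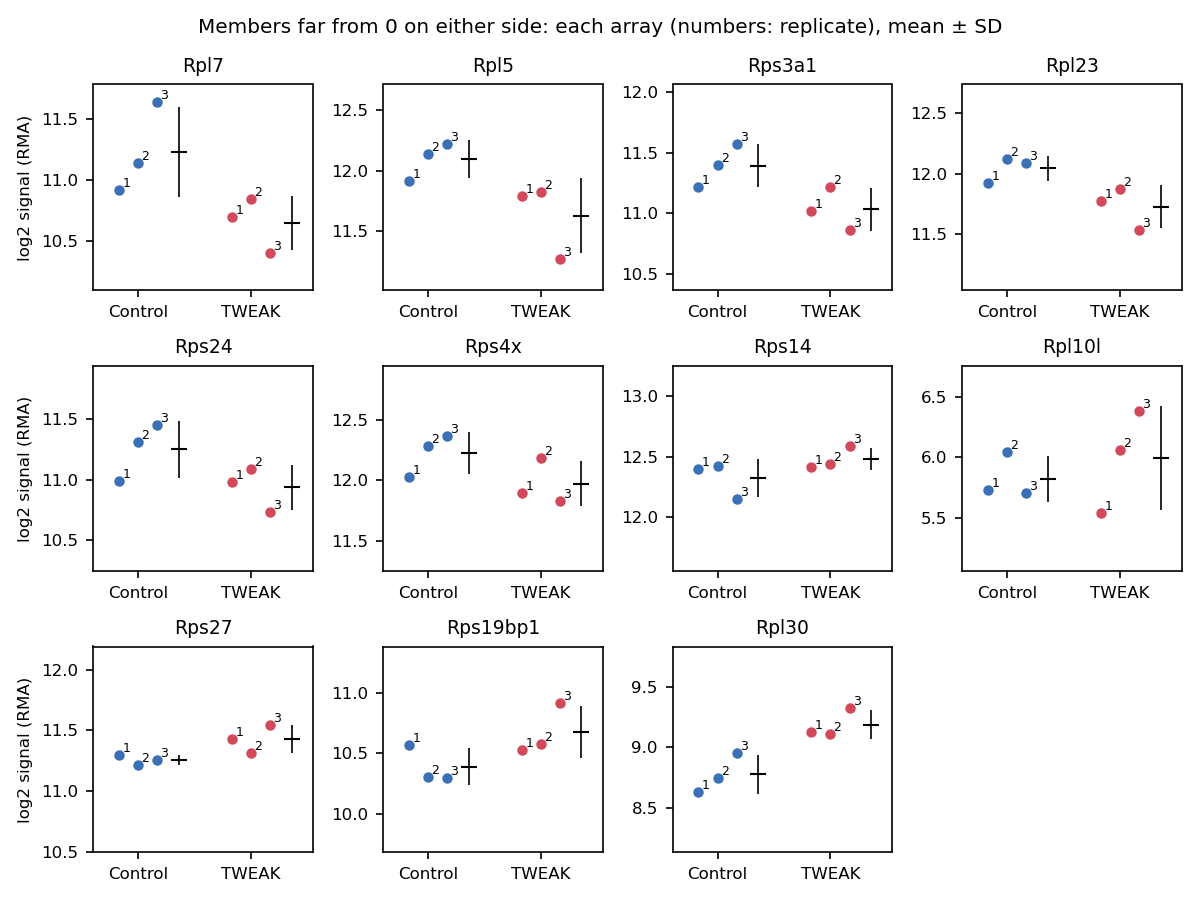
Log2 signal (RMA) in each array for the 6 members with the lowest differences and 5 with high ones; numbers beside the points give the replicate, and the dash with its bar gives mean ± SD of a group (n = 3). Rpl7, Rpl5 and Rpl23 have all TWEAK points below all control points, Rps27 and Rpl30 all above, and the other 6 overlap.

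In the small subunit the lowest differences belonged to Rps3a1, Rps24 and Rps4x. Rps3a1, a protein of the subunit's platform listed as Rps3a in the deposited file, read 11.22, 11.40 and 11.57 in control and 11.02, 11.22 and 10.86 in TWEAK arrays, with TWEAK 2 just above control 1. It differed by -0.36 (SE 0.13), with an unadjusted p of 0.0202 and an adjusted p of 0.143 in limma. Rps24 read 10.99, 11.31 and 11.45 in control and 10.98, 11.09 and 10.74 in TWEAK arrays, a difference of -0.31 (SE 0.14). Rps4x, the X-linked S4 protein, read 12.03, 12.28 and 12.36 in control and 11.90, 12.18 and 11.83 in TWEAK arrays, a difference of -0.26 (SE 0.13). Their groups overlapped. In Rpl7, Rpl5, Rps3a1, Rps24 and Rps4x alike control 3 was the highest of the 6 arrays, control 1 the lowest control array and TWEAK 3 the lowest of all.

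Rps27 and Rps14 were among the small subunit genes with a difference above 0. Rps27, a zinc finger protein, read 11.30, 11.22 and 11.26 in control and 11.43, 11.31 and 11.55 in TWEAK arrays, a difference of 0.17 (SE 0.09) whose groups did not overlap. Without TWEAK 3 it was 0.11. Rps14 read 12.40, 12.43 and 12.15 in control and 12.41, 12.44 and 12.58 in TWEAK arrays, a difference of 0.16 (SE 0.10) with overlapping groups. It was 0.07 without control 3 and 0.07 with array weights.

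Further members are known for roles beyond building the ribosome. Rps3, which in human cells is also a partner of the NF-kB subunit p65, read 12.24, 12.22 and 12.09 in control and 12.19, 12.13 and 12.29 in TWEAK arrays, a difference of 0.02 (SE 0.09, 95% interval -0.18 to 0.22). Rpl13a, which in human monocytic cells leaves the ribosome to silence inflammatory mRNAs, read 12.84, 12.77 and 12.77 in control and 12.76, 12.94 and 13.00 in TWEAK arrays, a difference of 0.11 (SE 0.09). Rps6, the substrate of the S6 kinases, read 13.00, 13.13 and 13.16 in control and 13.10, 13.13 and 13.13 in TWEAK arrays, a difference of 0.03 (SE 0.08). The groups overlapped for all 3. Rps19 differed by 0.04 (SE 0.08). Rps19bp1, which binds Rps19 and is also known as an activator of the deacetylase Sirt1, read 10.57, 10.31 and 10.29 in control and 10.53, 10.57 and 10.92 in TWEAK arrays, a difference of 0.28 (SE 0.13, adjusted p = 0.257 in limma) with overlapping groups. Without TWEAK 3 it was 0.16.

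The 4 brightest members lay near 0. Beside Rplp0 and Rplp1, Rps2 differed by 0.03 (SE 0.07) and Rpl18 by 0.06 (SE 0.07). Rpl18 read 13.30, 13.30 and 13.29 in control and 13.33, 13.35 and 13.39 in TWEAK arrays, so that the groups did not overlap at a difference far inside its interval of -0.11 to 0.23.

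Paralogs were set beside the core proteins they resemble, within each gene only, since signals of different probe sets are not levels that can be ranked. Rpl22 differed by 0.00 (SE 0.09) and Rpl22l1, which can take its place in the ribosome, by -0.02 (SE 0.20). Rpl22l1 read 6.57, 6.58 and 6.93 in control and 6.21, 7.03 and 6.78 in TWEAK arrays, a wide spread in both groups. Rps27l, known as a p53 target, read 11.10, 11.12 and 11.22 in control and 11.00, 11.42 and 11.46 in TWEAK arrays, a difference of 0.15 (SE 0.13) beside 0.17 for Rps27. It was 0.29 without TWEAK 1 and 0.06 without TWEAK 3. Rpl36a differed by -0.11 (SE 0.08) and its intronless copy Rpl36al by -0.13 (SE 0.12). Rpl3 differed by -0.09 (SE 0.08), Rpl10 by -0.01 (SE 0.07) and Rpl39 by 0.05 (SE 0.09). Their tissue-restricted relatives gave dim signals: Rpl3l, known from striated muscle, had a mean of 5.05 and differed by 0.11 (SE 0.09), and Rpl39l, known from male germ cells, had a mean of 3.82 and differed by -0.02 (SE 0.09). Rpl10l, which replaces the X-linked Rpl10 in mouse spermatogenesis, read 5.73, 6.04 and 5.70 in control and 5.54, 6.05 and 6.38 in TWEAK arrays, with an SD of 0.43 among the TWEAK arrays, the largest of any member, and a difference of 0.17 (SE 0.20). Rpl7l1 differed by 0.04 (SE 0.08), and Rps4l, listed as Rps4y2 in the deposited file, by -0.02 (SE 0.09). Of the 9 members outside the core, 0 had an unadjusted p under 0.05 in limma.

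Ribosomal protein genes have many processed copies in the genome, and 67 of the 85 members had several probe sets, Rpl29 as many as 29. Counted probe set by probe set, limma called 0 of the 407, with a smallest adjusted p of 0.0714, while 0.377% of all 28361 probe sets were called. At an unadjusted p under 0.05 there were 16 of the 407 (3.93%; 4 higher, 12 lower), against 19.6% of all probe sets. For 54 of the 67 members the probe sets lay within 0.1 of each other, and the median range was 0.05. For 15 they lay on both sides of 0. Of the 407, 23 held values identical to another probe set of the same gene, so probe sets are not independent readings. The widest range, 0.78, belonged to Rpl23a: 13 of its 14 probe sets lay between -0.15 and -0.03, and a dimmer one with a mean of 9.20 differed by 0.63 (SE 0.14), reading 8.90, 8.98 and 8.79 in control and 9.23, 9.58 and 9.74 in TWEAK arrays. Rpl12 had the same form, with 7 probe sets between 0.01 and 0.05 and a dimmer one, mean 9.02, at 0.55 (SE 0.11). These 2 genes were singled out after their values were seen. Which copy or transcript a probe set reads was not tested, neither for the dimmer ones nor for the brightest, which stands for its gene. The 21 probe sets named for pseudogenes of these genes, after updating symbols, differed by -0.12 to 0.41, and limma called 0 of them, with 3 at an unadjusted p under 0.05.

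**Figure D4:**
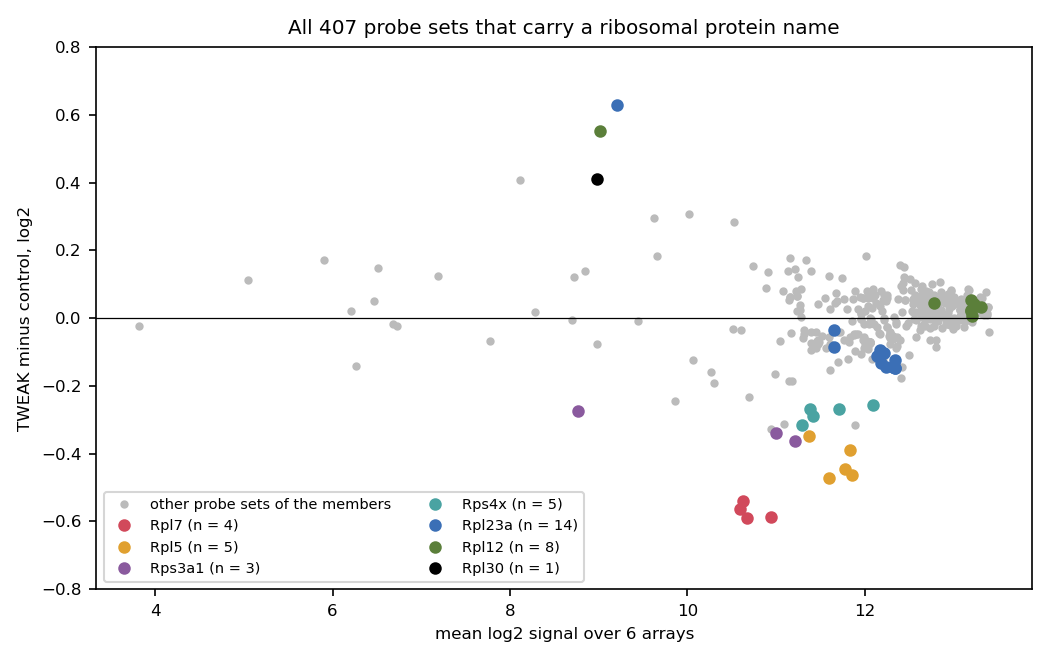
Difference between TWEAK and control (log2) against mean log2 signal over 6 arrays for the 407 probe sets of the 85 members, with the probe sets of 7 genes in colour. Most points lie close to 0 at a mean above 12, the probe sets of Rpl7 and Rpl5 lie together below 0, and single dimmer probe sets of Rpl23a, Rpl12, Rps12 and Rpl30 lie above 0.4.

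Further proteins of the cytosolic ribosome, whose names the rule did not take, lay near 0 too. Rpsa and Rack1 of the small subunit differed by 0.04 (SE 0.09) and 0.07 (SE 0.08), and Fau, made as a fusion with a ubiquitin-like protein, by 0.05 (SE 0.08). Limma called 0 of these 3, and 0 had an unadjusted p under 0.05.

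Lists close to the members in function held called genes, and the difference between lists was not tested. For comparison, limma called 3.00% of all genes, and 21.3% had an unadjusted p under 0.05 (8.15% higher, 13.1% lower). Of 77 mitochondrial ribosomal proteins, encoded in the nucleus for the ribosome of the organelle, 2 rose and 3 fell past the adjusted threshold, and 24 (31.2%) had an unadjusted p under 0.05. Mrps22 fell by 0.66 (SE 0.12, adjusted p = 0.0365 in limma) and Mrpl1 fell by 0.78 (SE 0.15, adjusted p = 0.0402), while their list had a median of 0.08. Of 27 genes of ribosome assembly and RNA polymerase I, 2 rose: the polymerase subunit Polr1b by 0.79 (SE 0.11, adjusted p = 0.0259 in limma) and the assembly factor Rrp12 by 0.69 (SE 0.12, adjusted p = 0.0368). In that list 13 were higher and 1 was lower with an unadjusted p under 0.05, and the median was 0.24, against 0.03 for all genes. Of 20 other TOP mRNAs, the initiation factor subunit Eif3m alone passed the threshold and fell by 0.76 (SE 0.13, adjusted p = 0.0367 in limma), with 6 lower and 0 higher before adjustment and a median of -0.10. The elongation factors Eef1a1 and Eef2, also TOP mRNAs, differed by -0.11 (SE 0.08) and 0.05 (SE 0.07). Of 10 genes that control TOP mRNAs and S6 kinase, limma called 0, with 2 lower before adjustment, and of 12 housekeeping genes 0, with 4 lower before adjustment.

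**Figure D5:**
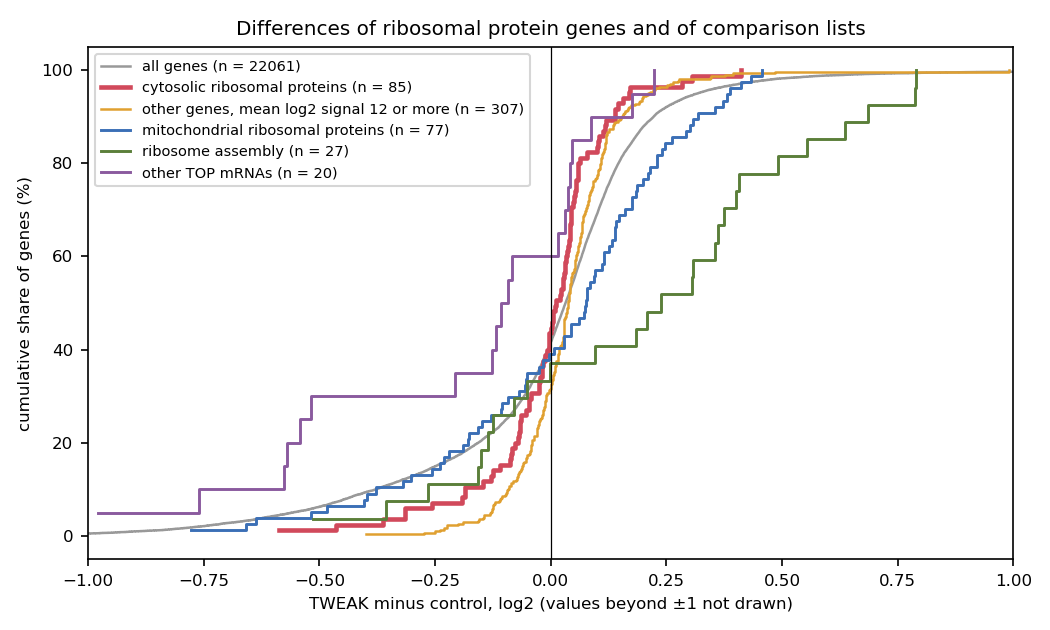
Cumulative share of genes (%) by difference between TWEAK and control (log2) for the 85 cytosolic ribosomal proteins, all 22061 genes and 4 comparison sets. The line of the members rises steeply through 0, with a median of 0.01, while that of ribosome assembly lies to the right, with a median of 0.24.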

How the data were processed

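Total RNA (Trizol, WT PLUS labelling, per the labels) of 3 control and 3 TWEAK samples was hybridised to Affymetrix arrays. The authors deposited log2 values per probe set; the submitters' processing notes name RMA and Affymetrix Expression Console, while software versions and the build were not given in the sources used here. The deposited ratio, p-value and false discovery rate columns, per the file headers, were not used for results. Groups come from the sample titles.

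Symbols were updated through RefSeq (GRCm38.p6, names only): 22111 probe sets by accession, 1818 by symbol, 625 by synonym, 911 kept, which renamed 2 members. Differences were tested over all 22061 genes with limma 3.58.1 (lmFit, eBayes, no block, two-sided) in R 4.3.3, Benjamini-Hochberg adjusted, threshold 0.05; intervals are limma's 95% intervals. Python 3.11.15, pandas 2.3.3 and matplotlib 3.10.9 made tables and figures. The code recovered known changes in simulated data, all larger than the difference of any member, so this does not cover changes of the size reported here. Promoters are RefSeq's.

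The members and lists were chosen with earlier results of these data known. Named members are the 6 largest differences each way, the 4 brightest, 4 dimmest and 4 most variable, and a fixed set of stalk, 5S, paralog and moonlighting genes; of comparison lists, up to 2 called genes. Others are said to be chosen after their values were seen. Values of some genes are not reported here, and a member among them is not drawn; all counts and medians include them. Alternatives were a replicate block, trend and robust settings, brighter genes only, mean of probe sets, single probe sets, symbols as filed, median centring, cyclic loess, array weights, core members only and each array left out. Whether replicate numbers pair the arrays is not known. Deviations from group means correlated at 0.20, 0.36 and -0.07 for numbers 1, 2 and 3. Between arrays of unlike number they correlated at -0.49 to 0.29, and 3 arrays per group cannot settle it.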

Additional observations from a re-analysis of the deposited data

How the results depend on the processing

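The count of members past the adjusted threshold was 0 higher and 0 lower in every alternative except 2. With array weights 1 member was higher (Rpl30, 0.42) and 3 were lower (Rpl23, Rpl5 and Rps3a1, by -0.35, -0.46 and -0.34). Leaving out each array in turn gave 0 higher and 0 to 1 lower, the 1 being Rpl7 without control 1. Members at an unadjusted p under 0.05, 1 higher and 4 lower in the report, ran from 1 to 6 higher (6 without TWEAK 1) and from 1 to 6 lower (6 without control 1 and without TWEAK 2, 1 without control 2 and without control 3) when an array was left out. They were 2 higher and 8 lower with trend and robust settings, 1 and 2 with the mean of all probe sets, 2 and 7 with cyclic loess, 3 and 9 with array weights, and 4 and 12 over all probe sets. In either direction, the share of all genes was 21.6% with trend and robust settings, 21.2% with the mean of probe sets, 21.1% with cyclic loess, 30.3% with array weights and 15.4% to 24.1% when an array was left out, and the share of all probe sets was 19.6%. With the replicate number as a block they were 2 higher and 4 lower (21.8% of all genes in either direction), and 0 passed the adjusted threshold. Whether the numbers pair the arrays is not known. Of 506 values of 34 named members, 462 kept direction and side of the threshold and 39 changed sign, and 18 members never changed sign. Median centring gave 0.0078 for Rpl10, 0.0024 for Rpl11, 0.015 for Rpl22 and 0.0012 for Rpl22l1. Cyclic loess gave -0.0223 for Rpl18, 0.0172 for Rpl22, -0.0235 for Rpl39, -0.0722 for Rplp0, -0.0114 for Rps19, -0.0493 for Rps2, -0.0343 for Rps3 and -0.0494 for Rps6. Array weights gave -0.0399 for Rpl10l, 0.006 for Rpl22, 0.0491 for Rpl22l1 and -0.0155 for Rps3. The mean of probe sets gave 0.0063 for Rpl11, 0.0162 for Rpl22l1 and 0.0622 for Rps4l. Some members changed sign when an array was left out. Over all such fits their values ran from -0.0265 to 0.3984 for Rpl10l, -0.0499 to 0.0103 for Rpl11, -0.0631 to 0.0431 for Rpl22, -0.197 to 0.2156 for Rpl22l1, -0.0003 to 0.1119 for Rpl39, -0.0631 to 0.0277 for Rpl39l, -0.0958 to 0.0041 for Rplp1, -0.0543 to 0.1398 for Rplp2, -0.0244 to 0.0598 for Rps3, -0.0672 to 0.0386 for Rps4l and -0.0228 to 0.0607 for Rps6. The cause of these changes was not tested. Signals of Rplp2, Rpl3l, Rpl10l and Rpl39l were dim, and no background measure was used here.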
